A study of Homo sapiens with 24 samples.

Results

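The genes described here are 10 secreted signals of inflammation: the chemokines CXCL1, CXCL2, CXCL3, CXCL8, CCL2 and CCL5, and the cytokines IL6, LIF, IL1A and IL1B. They were chosen by symbol as a fixed list, and their rows were read in each of 4 tables of gene expression covering 24 RNA-Seq libraries. All 10 had a row in 3 of the tables, and 9 of 10 had one for Hs578T, where CXCL1 was missing. The tables listed 19283 genes for Hs578T, 18248 for HCC70, 60651 for the depletion experiment and 23792 for the overexpression experiment. The libraries came from 3 established triple-negative breast cancer (TNBC) cell lines, with 3 biological replicates in each of 8 conditions. From Hs578T and HCC70, breast cancer stem-like cells (BCSCs, sorted by FACS as CD24-CD44+ and ALDH+) were compared with non-BCSCs lacking both phenotypes. MDA-MB-231 cells infected with lentivirus carried either a control guide RNA (sgCtrl) or KIF20A guide #1 (KIF20A sg1), and a further pair of MDA-MB-231 groups carried an empty vector (EV) or was labelled KIF20A overexpression (OE). Hs578T and MDA-MB-231 were grown in DMEM and HCC70 in RPMI, both with serum. The depletion used 1 guide in a selected population, so guides cannot be compared, and each of the 4 experiments was its own batch.

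Chemokines are small secreted proteins that attract leukocytes along a gradient. CXCL1, CXCL2, CXCL3 and CXCL8 attract neutrophils through the receptors CXCR1 and CXCR2, CCL2 attracts monocytes through CCR2, and CCL5 attracts T cells and monocytes. IL-6 and LIF are related cytokines that signal through the shared receptor subunit gp130, encoded by IL6ST, to STAT3, and IL-1α and IL-1β act on IL1R1 with its partner IL1RAP to activate NF-κB. NF-κB is a transcription factor that drives many of these genes in turn, and in TNBC cells IL-6, CXCL8 and their neighbours are best known as products of the tumor cell itself that act on the tumor and its surroundings.

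The 4 CXC genes lie together on chromosome 4 (GRCh38), with CXCL8 at 73740519 to 73743716 and CXCL1 at 73869393 to 73871308 on the plus strand, and CXCL3 at 74036589 to 74038807 and CXCL2 at 74097040 to 74099196 on the minus strand. IL1A and IL1B are neighbours on chromosome 2, CCL2 and CCL5 lie on chromosome 17, IL6 on chromosome 7 and LIF on chromosome 22. RefSeq promoters (GRCh38.p14) were found for 7 of the 10 genes; there was no entry for CCL2, CCL5 and LIF. The 250 bases before each start were searched on both strands for a κB motif, spelled GGNNTTTCC, which 5.48% of 35116 promoters hold, and for an AP-1 motif, spelled TGANTCA, which 6.57% hold. CXCL1, CXCL2 and CXCL3 each had 2 κB matches, the first at −78, −77 and −78 from the start and the other at −53 in all 3, whereas CXCL8 had 1 κB match at −91 and 1 AP-1 match at −137, and IL6 had 1 κB match at −72. IL1B had neither motif, and the promoters of IL1A had AP-1 matches only. Of the members with a κB match, CXCL8 and IL6 rose in BCSCs of Hs578T, CXCL2 and CXCL3 did not pass there, and CXCL1 had no row. A part of the motif in these differences was not tested. The stretches that hold the κB matches are shown for 4 genes, without CXCL3. They run 5′ to 3′ on the gene's own strand, κB matches in capitals, at chr4:73869283-73869362 (plus), chr4:74099226-74099305 (minus), chr4:73740459-73740518 (plus) and chr7:22727090-22727146 (plus), and none overlaps an annotated exon. The IL6 stretch lies inside the gene's annotated span, which begins at 22725884 with another transcript start.
CXCL1: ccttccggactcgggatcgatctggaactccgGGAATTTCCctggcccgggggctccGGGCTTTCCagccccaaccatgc
CXCL2: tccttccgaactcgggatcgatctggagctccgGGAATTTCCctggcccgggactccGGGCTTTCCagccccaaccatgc
CXCL8: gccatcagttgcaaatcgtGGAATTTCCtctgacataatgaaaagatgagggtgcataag
IL6: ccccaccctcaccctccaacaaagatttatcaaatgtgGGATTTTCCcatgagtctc
CXCL1, CXCL2 and CXCL3 are close paralogs. Of the 50-base words in transcripts of CXCL2, 13.4% also occur in another gene, against 4.57% for CXCL1 and 6.01% for CXCL3, and 0% for CXCL8. Values of CXCL1, CXCL2 and CXCL3 are therefore uncertain where reads could be split between these paralogs. For CCL5 the share was 16.9%, the largest of the members, with words found in MFN1 and PLEKHD1 among others, so its values carry a like uncertainty. Exons of IL6 overlap those of IL6-AS1 on the opposite strand over 9.91% of their length, and exons of LIF overlap LIF-AS1 over 2.22% and LIF-AS2 over 2.14%; the libraries were stranded, but whether counting used strand is not given in the sources used here.

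Depth, as whole reads recovered from the values (at least this many where values were TPM), ranged over the Hs578T libraries from 28189500 to 33715701 reads and over those of HCC70 from 24681218 to 33559417. The sgCtrl and KIF20A sg1 libraries had 41424338 to 51018667 reads, and the EV libraries and those labelled KIF20A OE, the shallowest, had 15971297 to 22182293. KIF20A, the mitotic kinesin the study is about, was higher in BCSCs of Hs578T (217 ± 2.54 to 297 ± 25.6 TPM, SD, n = 3; adjusted p = 0.0072, limma) and of HCC70 (71.4 ± 2.69 to 125 ± 3.48 TPM; adjusted p = 0.0016, limma). Most markers that separate mesenchymal-like from epithelial lines matched the labels of the sorted lines. VIM (vimentin) was 3699 TPM in Hs578T non-BCSCs against 6.23 TPM in HCC70 non-BCSCs, and EPCAM was 0.279 against 192 TPM. CD44, CAV1, CDH1, KRT8 and KRT14 also differed in the direction of the labels. ANXA1, listed as mesenchymal-like, went the other way, at 627.5 TPM in Hs578T against 1480 TPM in HCC70 non-BCSCs. Of 10 leukocyte markers, PTPRC (CD45) had a mean under 1 in all 8 conditions, and the summed level was 114 to 123 TPM in Hs578T non-BCSCs and 99.4 to 121 TPM in BCSCs, mostly CD68. It was 144 to 164 and 150 to 157 TPM in HCC70, where CD14 was 109 ± 12.7 and 87.9 ± 3.42 TPM and did not pass and CD68 rose from 45.4 ± 5.56 to 63.3 ± 3.01 TPM, a call lost with the median of ratios, 14.0 to 23.1 CPM for sgCtrl, 11.6 to 17.1 for KIF20A sg1, 6.04 to 10.2 for EV and 4.18 to 4.26 under the OE label. The part of these markers in the results was not tested. The OE-labelled libraries went against their label of the MDA-MB-231 line. CD44 was 788, 615 and 523 CPM in EV but 0.125, 0.316 and 1.23 CPM under the OE label. All 5 of 5 markers of mesenchymal-like TNBC lines were lower there. Of 4 epithelial or basal-like markers tested, 3 were lower too and 1 was higher. Over all genes tested, 23.4% were lower and 46.2% higher. CDKN2A and IRS4, at 0 reads in EV (which allows up to 0.0511 CPM), reached 276 to 353 and 1219 to 1750 CPM under the OE label. KIF20A itself was 101, 143 and 124 CPM in EV and 1348, 269 and 896 CPM there. Results for these libraries are therefore given as those of libraries labelled KIF20A OE, and what their cells are is not taken from the label.

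The baseline levels of the inflammatory genes differed by line. In TPM, which are divided by transcript length, the highest members in Hs578T non-BCSCs were CCL2 at 186 ± 14.5, CXCL8 at 159 ± 13.2, IL6 at 48.2 ± 1.098 and LIF at 21.3 ± 0.570 (SD, n = 3). Only CCL2 and CXCL8 overlapped among these 4. CXCL2 at 5.02 and CXCL3 at 2.66 TPM followed, and CCL5, IL1B and IL1A were below 1 TPM, with 0 to 6 reads per library across both fractions. HCC70 had another order. There CCL5 led with 18.1 ± 0.906 TPM in non-BCSCs, ahead of CXCL2 at 6.71 ± 2.25, CXCL1 at 2.99 ± 0.470, LIF at 2.08 ± 0.151 and CXCL8 at 1.81 ± 0.273, of which LIF and CXCL8 overlapped. CCL2 at 1.13, CXCL3 at 0.646, and IL1B and IL1A below 0.2 TPM were lower still, and IL6 had 0 or 1 read in every HCC70 library. Since both tables were normalized separately and the lines were different batches, levels are set side by side without a test. Between the lines the sets of libraries did not overlap for CXCL8, CCL2, IL6, LIF and CXCL3, all higher in Hs578T, or for CCL5, higher in HCC70, while CXCL2 overlapped in all 4 sorted conditions. How many of all genes failed to overlap between the lines was not counted, so a trait of the members cannot be read from this. The receptors of the CXC members were at the floor of detection: CXCR2 had 0 or 1 read in each sorted library and CXCR1 had no row. IL6ST, in contrast, was 405 ± 22.7 TPM in Hs578T and 53.1 ± 3.10 TPM in HCC70 non-BCSCs, LIFR was 33.1 and 33.8 TPM, and IL1R1 was 29.97 and 53.8 TPM.

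**Figure D1:**
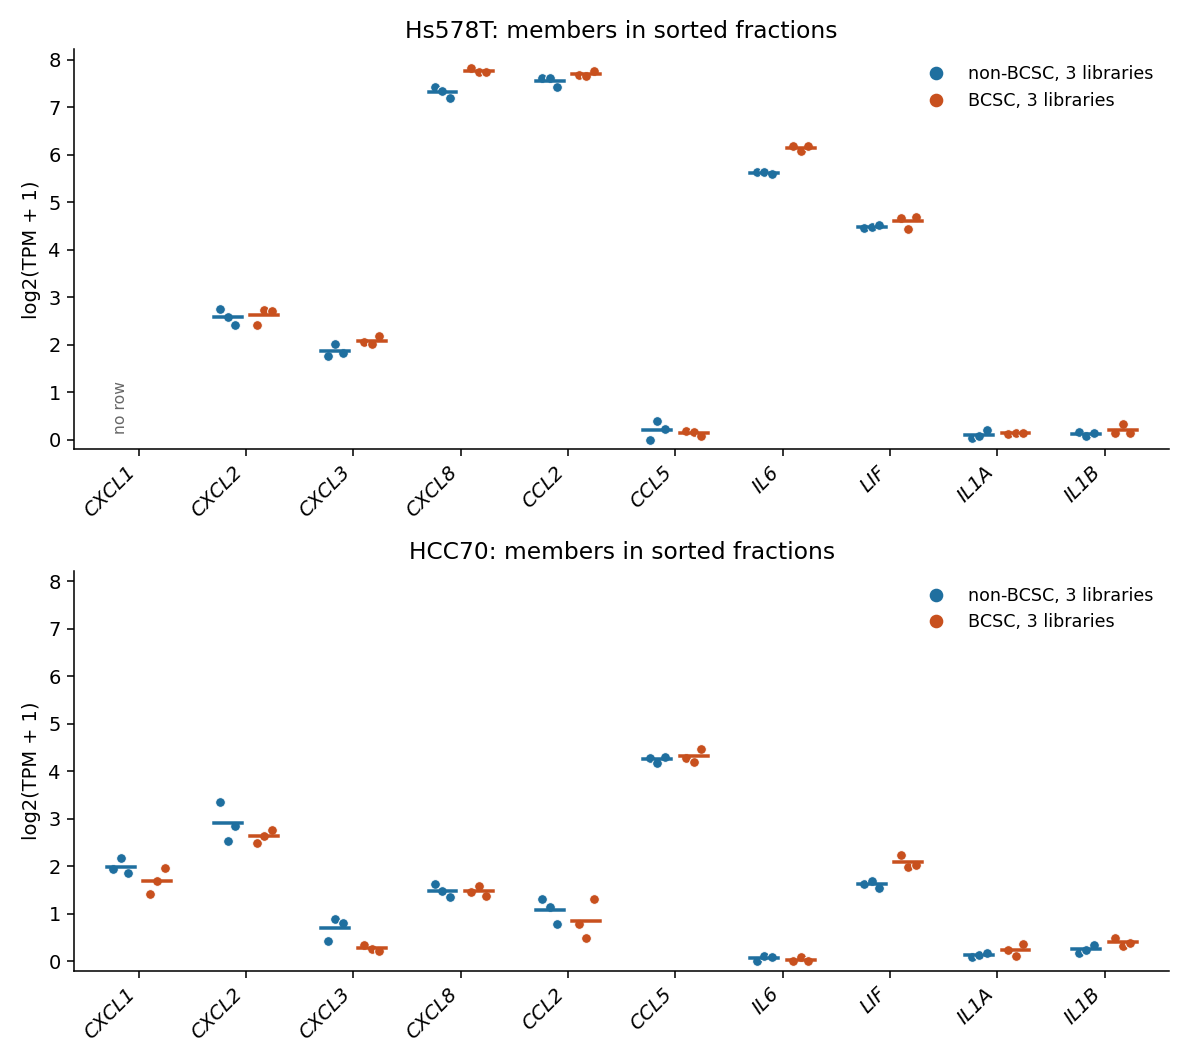
Levels of the 10 members in sorted fractions of Hs578T (top) and HCC70 (bottom). The vertical axis is log2(TPM + 1), each point is 1 library and each bar the mean of 3. IL6 and CXCL8 of Hs578T BCSCs lie above all 3 non-BCSC libraries, IL6 is at 0 or 1 read in HCC70, and CXCL1 has no row in Hs578T.

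In Hs578T, CXCL8 and IL6 were higher in BCSCs than in non-BCSCs. CXCL8, the neutrophil chemokine also called IL-8, read 171, 162 and 145 TPM in the non-BCSC libraries and 225, 212 and 214 TPM in the BCSC libraries. Every BCSC library lay above every non-BCSC library, the ratio of the means was 1.37, and the log2 difference was 0.45 ± 0.065 (SE; adjusted p = 0.0075 by limma on log2(TPM + 1), two-sided, Benjamini-Hochberg over 13324 genes). IL6 read 48.7, 48.9 and 46.9 TPM in non-BCSCs and 71.2, 66.5 and 72.0 TPM in BCSCs. Its groups did not overlap either, with a ratio of 1.45 and a log2 difference of 0.53 ± 0.047 (adjusted p = 0.0014, limma). How many of all genes failed to overlap between the fractions was not counted in Hs578T or HCC70, so non-overlap is description only. Both differences rested on ample depth, 3391 to 5121 reads of CXCL8 and 672 to 1197 reads of IL6 per library. In bulk samples, more cells that make a transcript and more transcript per cell cannot be told apart.

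The other 4 members tested in Hs578T did not pass. CCL2, the monocyte chemokine, read 195, 194 and 169 TPM in non-BCSCs and 205, 199.6 and 217 TPM in BCSCs. Its groups did not overlap, but the log2 difference of 0.16 (95% interval 0.0042 to 0.31) had an adjusted p of 0.21 by limma. CXCL3 read 2.38, 3.05 and 2.55 against 3.17, 3.03 and 3.52 TPM, a log2 difference of 0.21 (−0.011 to 0.44; adjusted p = 0.25, limma) from 32 to 57 reads per library. LIF read 20.8, 21.2 and 21.9 against 24.4, 20.6 and 24.8 TPM (log2 difference 0.12, −0.054 to 0.29; adjusted p = 0.40, limma). CXCL2 read 5.70, 5.01 and 4.35 against 4.33, 5.61 and 5.50 TPM, and its log2 difference of 0.03 (−0.24 to 0.30) changed sign when any 1 of 3 libraries was left out. LIF, CXCL2 and CXCL3 thus overlapped between the fractions. In all, 2 of 6 tested members rose and 0 fell, and their median log2 difference was 0.19, beside −0.01 over all genes tested. Over all genes 2.9% rose and 4.26% fell, and CXCL8 and IL6 ranked 252 and 46 among the 13324 by p. With another scaling, the median of ratios, 620 genes rose and 573 fell where 386 and 567 did before, and both members kept their calls.

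In HCC70 no member passed the test. LIF, a cytokine of the IL-6 family, came nearest: it read 2.10, 2.22 and 1.92 TPM in non-BCSCs and 3.67, 2.97 and 3.05 TPM in BCSCs. The groups did not overlap, though the share of all genes without overlap was not counted in this line. The ratio of the means was 1.55 and the log2 difference 0.45 ± 0.11, with an adjusted p of 0.065 by limma. On the 84 to 193 recovered reads per library LIF passed, at adjusted p = 0.027 in edgeR and 0.014 in DESeq2. CXCL1 read 2.83, 3.51 and 2.61 against 1.65, 2.22 and 2.90 TPM (log2 difference −0.30, 95% interval −0.68 to 0.067), and CXCL2 read 9.16, 4.74 and 6.21 against 4.64, 5.21 and 5.75 TPM (−0.28, −0.72 to 0.17). Both sets of groups overlapped. CCL5, the member highest in this line, read 18.4, 17.0 and 18.8 against 18.4, 17.3 and 20.9 TPM, and its log2 difference of 0.06 lay between −0.13 and 0.25. CXCL8 read 2.10, 1.78 and 1.55 against 1.73, 1.99 and 1.60 TPM, a log2 difference of −0.02 (−0.29 to 0.26) from 30 to 45 reads. CXCL3 was under the minimum mean of 1 TPM for testing, at 0.345, 0.850 and 0.743 TPM against 0.262, 0.197 and 0.158 TPM (4, 11 and 11 reads against 4, 3 and 2). These groups did not overlap, and without a minimum the log2 difference was −0.44 (adjusted p = 0.14, limma). The remaining untested members, CCL2, IL6, IL1A and IL1B, had at most 12 reads in a library, and the groups of all 4 overlapped in TPM. Of 5 tested members, 0 rose and 0 fell, beside 2.28% of 13218 genes that rose and 0.552% that fell; 1 of the 5, LIF, had an unadjusted p under 0.05, as did 23.7% of all genes. The median log2 difference of the 5 was −0.02, beside 0.02 over all genes.

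The difference between the effects of the fraction in both lines was computed as an interaction over the 12 sorted libraries. Of the 7 members that entered, 3 had a mean of at least 1 TPM in both lines, CXCL2, CXCL8 and LIF, and of these CXCL8 passed. Its effect was 0.47 ± 0.12 lower on the log2 scale in HCC70 (value −0.47; adjusted p = 0.035, limma), where 8.11% of 13702 genes passed. The CXCL8 call was lost with a pseudocount of 0.1 (adjusted p = 0.083, limma) and in 8 of 12 fits with 1 library left out; it was kept without Hs578T non-BCSC replicate 1, Hs578T BCSC replicate 3, HCC70 non-BCSC replicate 3 or HCC70 BCSC replicate 2. LIF had a difference of 0.34 ± 0.12 toward HCC70 (adjusted p = 0.097, limma) and the interval of CXCL2 included 0. The other 4 members entered through 1 line alone. IL6 (value −0.56 ± 0.079) and CXCL3 (value −0.65 ± 0.16) had adjusted p of 0.0025 and 0.035 by limma, but in HCC70 they had 0 or 1 read and 2 to 11 reads. On log2(TPM + 1) IL6 could hardly move there, so its value restates the Hs578T difference. The intervals of CCL2 and CCL5 included 0. Across all genes the split of higher and lower differences was 863 and 248, and 637 and 376 with the median of ratios. Cell line and batch cannot be told apart in this test.

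**Figure D2:**
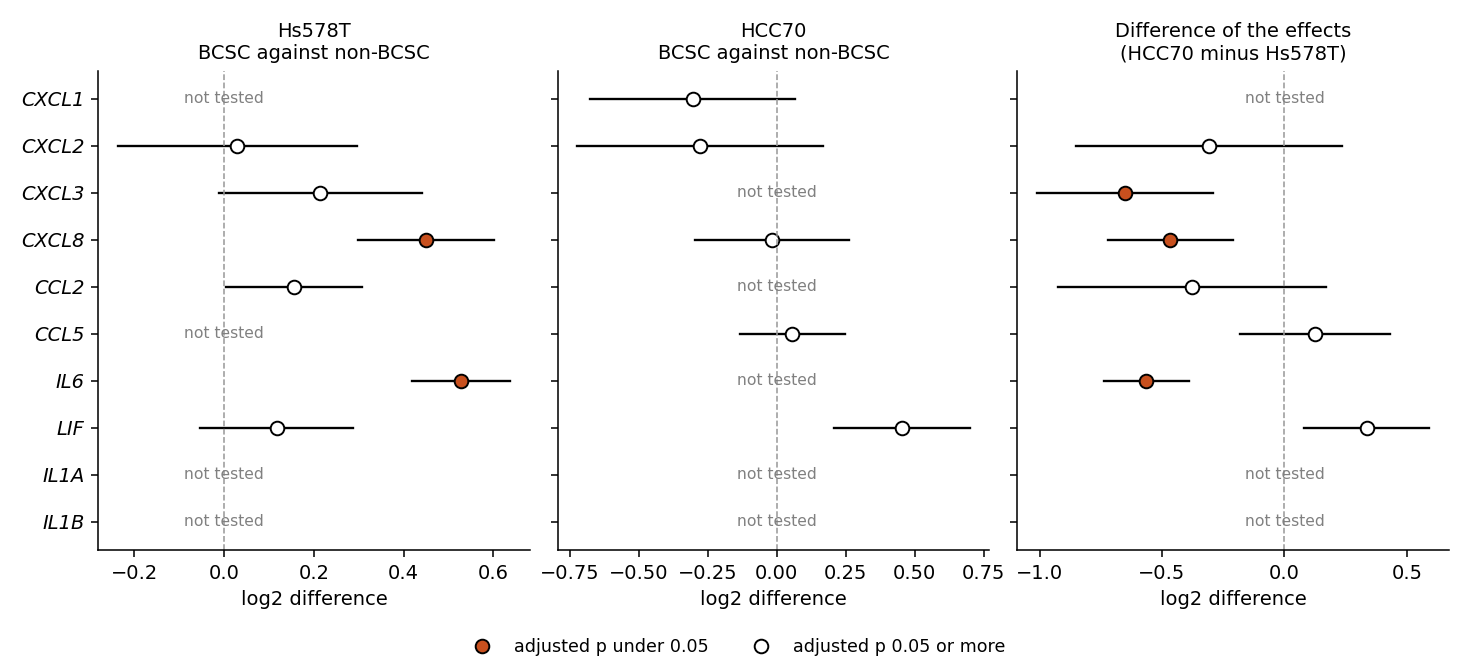
Differences of the members between BCSCs and non-BCSCs in Hs578T (left) and HCC70 (centre), and the difference between both effects (right), on the log2 scale. Points are limma estimates, lines 95% intervals and filled points an adjusted p under 0.05. CXCL8 and IL6 are filled and positive in Hs578T, none is filled in HCC70, and CXCL3, CXCL8 and IL6 are filled and negative for the difference.

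Genes that make, receive or pass on these signals were counted as fixed lists, to be read beside the 2.9% of all genes that rose and the 4.26% that fell in Hs578T. Of 22 NF-κB pathway genes tested in Hs578T, 1 rose and 1 fell: TRAF1, an adaptor induced by NF-κB, went from 8.63 ± 0.986 to 16.3 ± 1.28 TPM, and TNFAIP3, the inhibitor A20, from 16.7 ± 0.609 to 14.3 ± 0.278 TPM. With the median of ratios 2 NF-κB genes rose and 0 fell, so the fall of TNFAIP3 was not kept. Of 8 receptor genes, IL6R, the ligand-binding receptor of IL-6, rose from 3.83 ± 0.242 to 5.20 ± 0.186 TPM, and IL1R1 (29.97 ± 1.78 to 20.1 ± 0.614 TPM) and IL1RAP (18.7 ± 1.71 to 14.8 ± 0.444 TPM) fell. LIFR did not pass, and IL6ST passed only with the median of ratios (405 ± 22.7 to 455 ± 6.49 TPM; adjusted p = 0.091, and 0.030 with that scaling, limma). Among 9 AP-1 and C/EBP factors 0 rose and 3 fell, FOS (22.6 to 18.5 TPM), FOSB (2.44 to 1.29 TPM) and FOSL2 (87.9 to 72.0 TPM), and among 7 genes of AU-rich mRNA decay ZFP36L1 and HNRNPD fell and none rose, HNRNPD no longer with the median of ratios. Other cytokines that rose were TSLP (13.4 to 17.8 TPM) and IL11 (17.7 to 22.5 TPM), 2 of 8, and the chemokines CCL26 (5.58 to 3.11 TPM) and CCL28 (7.07 to 4.85 TPM) fell, 2 of 4. In the signalling lists, PIM1, a STAT3 target, rose as 1 of 7, and IRAK2 rose while CASP1, which cleaves pro-IL-1β, fell among 8.

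In HCC70 BCSCs, SOCS3, the feedback inhibitor of gp130 receptors, rose from 14.8 ± 0.971 to 21.1 ± 0.827 TPM (log2 difference 0.49 ± 0.069; adjusted p = 0.016, limma), 1 of 8 genes of the JAK and STAT3 arm. CXCL16 (78.6 ± 1.22 to 94.3 ± 0.748 TPM) and CX3CL1 (47.7 ± 3.54 to 61.5 ± 1.04 TPM) rose, 2 of 5 other chemokines, and neither passed with the median of ratios. Over all genes tested in HCC70, 2.28% rose and 0.552% fell. Of 22 NF-κB genes, 6 receptors, 7 other cytokines, 8 genes of IL-1 and Toll-like receptor signalling, 9 AP-1 and C/EBP factors and 7 AU-rich decay genes, 0 passed in limma in either direction. An unadjusted p under 0.05 was reached by 5, 0, 1, 0, 7 and 2 genes of these lists in that order, beside the 23.7% of all genes.

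In sgCtrl MDA-MB-231 cells 9 of the 10 members passed the minimum mean. There, on a scale of CPM per kilobase of the MANE transcript that allows genes to be compared, CXCL8 led with 114 ± 17.6, followed by CXCL1 at 59.5 ± 6.37, IL6 at 38.2 ± 9.25, CXCL2 at 21.0 ± 10.4, IL1A at 20.0 ± 2.34, LIF at 13.4 ± 5.85, IL1B at 12.9 ± 3.72, CCL2 at 9.48 ± 2.41 and CXCL3 at 7.00 ± 2.46 (SD, n = 3). CXCL8 and CXCL1 were separate from each other and from IL6, and neighbours from IL6 down to CXCL3 overlapped. CCL5 was at 0.243 CPM per kilobase, with 8 to 24 reads a library. IL1A and IL1B, which had at most 9 reads in any sorted library, had 1763 to 2186 and 724 to 1262 reads here. CXCR2 had 0 reads in all 6 libraries of this experiment and CXCR1 at most 3.

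KIF20A, the targeted gene, was 153, 173 and 156 CPM with sgCtrl, against 122, 145 and 91.1 CPM with KIF20A sg1. The groups did not overlap, with a log2 difference of −0.45 ± 0.16 that did not pass (adjusted p = 0.69, limma). Of 12852 genes tested, 0% had an adjusted p under 0.05. An unadjusted p under 0.05 was reached by 7% of all genes and by 0 of the 9 members tested, and groups did not overlap for 13% of all genes and for 0 of those 9. DESeq2 on recovered reads called 16 genes, of which 0 were members, and edgeR called 0. The median log2 difference of the 9 members was 0.06, beside 0.00 over all genes. Left out one at a time, sgCtrl replicate 3 took the count over all genes from 0 to 144 and KIF20A sg1 replicate 2 to 5, and the count of members stayed at 0.

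Within the guide group, IL1A and IL1B spread most. IL1A, a cytokine released by damaged cells, read 40.7, 44.8 and 35.4 CPM with sgCtrl, against 72.3, 12.8 and 141 CPM with KIF20A sg1, from 634 to 5899 reads. IL1B read 15.9, 25.9 and 16.4 CPM with sgCtrl, against 32.1, 9.64 and 57.6 CPM with the guide. In both genes, sg1 libraries 1 and 3 lay above and library 2 below all 3 controls. The mean log2 differences of 0.35 for IL1A (95% interval −0.99 to 1.69) and 0.46 for IL1B (−0.57 to 1.49) were smaller than this spread. Library 3 also had the lowest KIF20A, 0.567 of the sgCtrl mean, and library 2 the highest of the guide group, 0.901; with 3 libraries no relation was tested.

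CXCL8 read 219, 161 and 184 CPM with sgCtrl against 183, 155 and 258 CPM with the guide, a log2 difference of 0.06 (−0.35 to 0.46). CXCL1 read 77.5, 69.4 and 62.6 against 61.4, 48.2 and 63.9 CPM and had the smallest adjusted p of the members, 0.699 by limma, for a log2 difference of −0.27 (−0.59 to 0.042). For both the guide and control libraries overlapped. CXCL2 (36.8, 16.1 and 17.5 against 20.0, 19.7 and 31.6 CPM) and CXCL3 (10.6, 6.21 and 5.80 against 8.88, 5.38 and 11.7 CPM) had log2 differences of 0.08 and 0.17. IL6 read 53.6, 32.8 and 42.8 against 31.1, 60.0 and 42.8 CPM (0.03, −0.48 to 0.54), and LIF read 76.4, 48.0 and 31.7 against 47.1, 29.4 and 72.9 CPM (−0.07, −0.79 to 0.66). These 4 genes varied within each group by more than the groups differed. CCL2 read 9.04, 5.66 and 6.38 against 4.93, 6.69 and 5.44 CPM (−0.25, −0.69 to 0.19), and CCL5, under the minimum, read 0.176, 0.492 and 0.281 against 0.251, 0.766 and 0.191 CPM. The interval of CXCL8 excludes a change of 1 log2 unit, whereas that of IL1A does not.

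**Figure D3:**
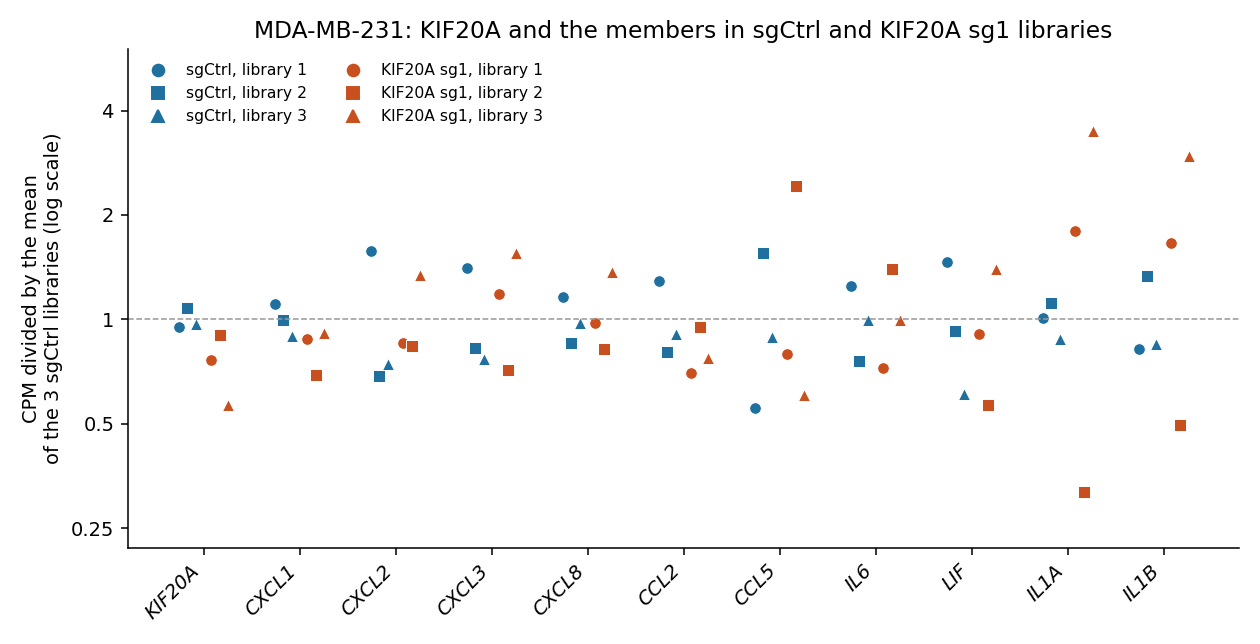
KIF20A and the 10 members in MDA-MB-231 with sgCtrl or KIF20A sg1, as CPM divided by the mean of the 3 sgCtrl libraries, on a log axis. Each point is 1 library, its shape gives the replicate number and the dashed line marks the sgCtrl mean. KIF20A sg1 libraries lie below all controls for KIF20A, and IL1A runs from 0.317 to 3.49 among them.

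The lists of related genes gave 0 passing genes in this experiment by limma, among 22 NF-κB genes, 8 receptors, 4 other chemokines, 12 other cytokines, 9 genes of IL-1 and Toll-like receptor signalling, 8 of the JAK and STAT3 arm, 9 AP-1 and C/EBP factors and 7 AU-rich decay genes. An unadjusted p under 0.05 was reached by 2, 2, 0, 0, 0, 1, 1 and 1 of them in that order, beside the 7% of all genes. IL1R1, the receptor of both IL-1 members, was 27.0 ± 3.70 CPM with sgCtrl against 33.9 ± 1.97 CPM with the guide (adjusted p = 0.69, limma).

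In the EV libraries, LIF at 19.8 ± 3.29 and CXCL8 at 14.5 ± 2.90 CPM per kilobase were the highest members and overlapped. All 5 members that passed the minimum mean were lower in the libraries labelled KIF20A OE. LIF read 65.0, 90.3 and 74.8 CPM in EV, against 8.08, 6.72 and 11.2 CPM in libraries labelled KIF20A OE, a log2 difference of −3.02 ± 0.21 (adjusted p = 5.7e-06, limma). CXCL8 read 27.8, 18.6 and 25.3 CPM in EV and 0, 0.631 and 0.642 CPM there, with a log2 difference of −4.14 ± 0.27 (adjusted p = 3.7e-06, limma). For neither gene did the groups overlap, and the share of all genes without overlap was not counted in this comparison. CXCL1 read 11.7, 2.71 and 16.6 CPM in EV and had 0 reads in all 3 libraries labelled KIF20A OE. Reads pooled over each group, with a floor of 3 reads (0.0528 CPM), gave a ratio of 188. That ratio allows for counting error only and not for the spread among the EV libraries, so it is not a lower bound on the group difference. CXCL2 (3.05, 6.38 and 6.06 against 0.313, 0.811 and 0.268 CPM) and CXCL3 (2.81, 3.62 and 3.82 against 0.2504, 0.902 and 0.428 CPM) had log2 differences of −2.04 ± 0.28 and −1.55 ± 0.22. These are on the log2(CPM + 1) scale, which understates the change of low genes. Since CXCL1, CXCL2, CXCL3 and CXCL8 met the minimum through EV alone, they had to differ to be tested.

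The other members were low in both groups. IL6 had 60, 13 and 17 reads in EV and 0, 0 and 4 in libraries labelled KIF20A OE, and IL1A had 28, 8 and 31 against 6, 2 and 0; neither overlapped. IL1B had 24 reads in EV and 2 in the others over 3 libraries, a ratio of 11.6. Its exact 95% counting interval of 2.88 to 101 leaves out the spread between libraries. CCL2, with 0, 14 and 0 against 0, 0 and 3 reads, and CCL5, with at most 4, overlapped. Without a minimum, IL6, IL1A and IL1B also passed as lower, which made 8 of 10. The 5 members that passed the minimum stand beside 23.4% of 15265 genes that were lower and 46.2% that were higher. The 8 of 10 stand beside 4239 lower and 9016 higher of 23792 genes tested without a minimum. Both counts also stand beside the change in CD44, CDKN2A and IRS4 given above, with which they cannot be told apart. The median log2 difference of all genes was 0.37, and 0.026 with the median of ratios, where 5135 genes were higher and 5013 lower in place of 7055 and 3579; the 5 members were lower on both scales.

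**Figure D4:**
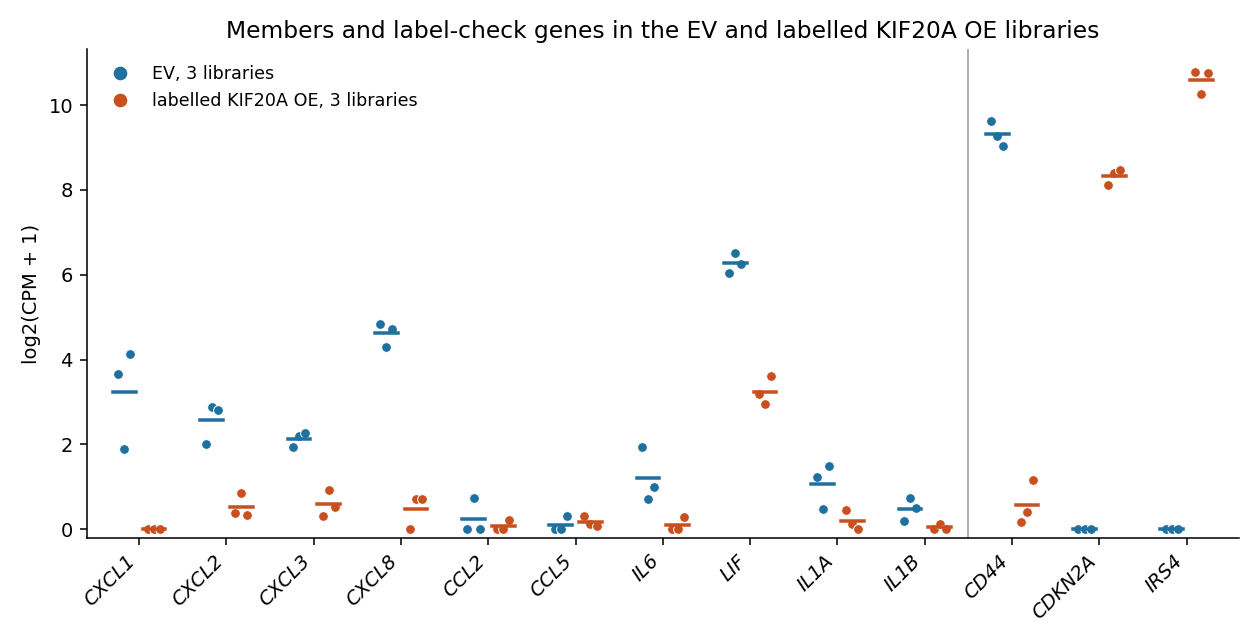
The 10 members and, right of the line, CD44, CDKN2A and IRS4 in EV and labelled KIF20A OE libraries, as log2(CPM + 1). Each point is 1 library and each bar the mean of 3. CXCL1 is at 0 in all 3 libraries labelled KIF20A OE, LIF remains above 6 CPM, and CD44, CDKN2A and IRS4 separate the groups.

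Partner genes moved in both directions in that comparison, to be read beside the 46.2% of all genes that were higher and the 23.4% that were lower. Of 22 NF-κB genes 3 were higher and 13 lower, and 2 and 16 with the median of ratios, led by BIRC3 (50.5 ± 12.8 to 0.539 ± 0.345 CPM), ICAM1 (52.2 ± 24.3 to 0.0927 ± 0.0939 CPM) and TRAF1 (40.3 ± 6.20 to 6.69 ± 0.852 CPM). Among 9 receptor genes 4 were higher and 5 lower: OSMR (159 to 0.0417 CPM), IL6ST (256 ± 6.32 to 85.8 ± 9.25 CPM) and LIFR (88.7 ± 16.4 to 44.6 ± 3.63 CPM) were lower, and IL6R (0.231 ± 0.0983 to 18.6 ± 12.0 CPM) and CNTFR were higher. In the JAK and STAT3 arm 0 of 8 were higher and 6 lower, with SOCS3 at 61.0 ± 7.602 against 5.55 ± 1.84 CPM and STAT3 at 207 ± 39.1 against 88.6 ± 7.70 CPM. MYD88, the adaptor of IL-1 receptors, went from 62.0 ± 6.72 to 1.69 ± 0.796 CPM, and FOSL1, an AP-1 subunit, from 324 ± 70.4 to 1.67 ± 0.419 CPM. ATF3 was higher, from 4.90 ± 2.36 to 204 ± 153 CPM. Other cytokines had 3 higher and 7 lower of 12, with IL18 at 29.3 ± 6.93 against 0.5999 ± 0.176 CPM and TSLP at 0 against 5.66 ± 0.772 CPM. Of 3 other chemokines tested, 2 were higher and 1 lower.

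Both MDA-MB-231 experiments had an own control, and the controls differed in these genes. CXCL8 was 188 ± 29.0 CPM in sgCtrl and 23.9 ± 4.77 CPM in EV, CXCL1 was 69.8 ± 7.48 and 10.3 ± 7.03 CPM, IL6 was 43.1 ± 10.4 and 1.49 ± 1.19 CPM, IL1A was 40.3 ± 4.73 and 1.18 ± 0.730 CPM, and IL1B was 19.4 ± 5.60 and 0.410 ± 0.267 CPM. The libraries of both controls did not overlap for these 5 genes, nor for CXCL2, CXCL3 and CCL2. The share of all genes without overlap between the controls was not counted, so this is not shown to be particular to the members. LIF, at 52.0 ± 22.6 and 76.7 ± 12.7 CPM, overlapped, and so did CCL5. As each control came from a separately normalized table and batch, and carried another vector, these values have no test.

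Over the 18 libraries of the sorted lines and the depletion experiment, 3 members had a mean of at least 1 in each table: CXCL2, CXCL8 and LIF. With the mean of each table subtracted, the genes of highest Pearson r among 10043 were UBASH3B (r = 0.86), TNFRSF11A (0.84) and PITPNC1 (0.80) for CXCL8, POMT2 (0.95), MYRF (0.94) and SF1 (0.93) for LIF, and CARS2 (0.90), CLCN5 (0.88) and ARGLU1 (0.88) for CXCL2. The members were less alike among themselves, with r of 0.57 for CXCL2 and CXCL8, 0.55 for CXCL8 and LIF and 0.43 for CXCL2 and LIF. Libraries share depth and batch within a table, the 3 libraries of a group share a condition, and the highest of many r are picked, so these are descriptions. Within HCC70 alone the r of UBASH3B with CXCL8 was 0.17 and that of PITPNC1 was −0.36, against 0.98 and 0.98 in Hs578T.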

How the data were processed

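RNA-Seq libraries of 24 samples were grouped by their titles, with replicate numbers from the same titles. The authors aligned poly-A, stranded, paired-end reads to GRCh38; the submitters' processing notes name HISAT2 2.0.5 and featureCounts 1.5.0-p3, and the annotation is not given in the sources used here. For the sorted lines the authors deposited TPM values, which correct for transcript length. For the depletion experiment the deposited values are named CPM but are a scaled signal, each library's reads over its own factor, with column sums of 977394 to 1028621. The deposited overexpression table holds CPM that the authors scaled to 1000000 per library.

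The members and the lists of related genes were chosen with earlier results of these data known. Older symbols were updated through RefSeq synonyms for 1364, 1321, 420 and 200 rows, CXCL8 among them, and 0 sample columns were left unused. Genes with a mean of at least 1 were tested by limma 3.58.1 with a trend in the prior variance on log2(value + 1), run in R 4.3.3. Tests were two-sided, and p-values were adjusted by Benjamini-Hochberg over all genes of a fit. Each of the 4 comparisons was fitted alone, and the interaction of line and fraction over 12 libraries, on genes of both tables. Members are named in full; related genes are named where they passed with the 3 smallest adjusted p of a list, or as receptors of a member.

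Whole reads were recovered for 100% of values (within 0.1 of a whole number for CPM), and in TPM up to a common divisor, so they can be too low (as for CCL2 in Hs578T). Intervals and floors cover counting error only. edgeR 4.0.16 and DESeq2 1.42.0 on these reads called 1646 and 1418 genes in Hs578T, 715 and 1178 in HCC70, 0 and 16 in the depletion experiment and 9931 and 10185 in the overexpression experiment, beside 953, 374, 0 and 10634 by limma. The study's methods call the replicates biological triplicates. Other alternatives were a pseudocount of 0.1, no minimum, a minimum mean of 5, the median of ratios, a replicate block and each library left out. Positions, exon overlaps, MANE lengths and 50-base words come from GENCODE 44, which may differ from the authors' annotation. The main limma, edgeR and DESeq2 fits of the 4 comparisons were tested on simulated data with the same dispersion for all genes. The interaction and the other alternatives were not tested in this way. Python 3.11.15, numpy 2.4.6, pandas 2.3.3, scipy 1.17.1 and matplotlib 3.10.9 were used.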

Additional observations from a re-analysis of the deposited data

Results flagged for a closer look

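The interaction term for the BCSC fraction and the line passed for CXCL8, CXCL3 and IL6. On the log2 scale, as HCC70 minus Hs578T, the value was −0.47 ± 0.12 for CXCL8, −0.65 ± 0.16 for CXCL3 and −0.56 ± 0.079 for IL6. In HCC70 these genes had 30 to 45, 2 to 11 and 0 to 1 reads per library, against 3391 to 5121, 32 to 57 and 672 to 1197 in Hs578T. CXCL3 and IL6 were under the minimum mean in HCC70 and entered through Hs578T alone, so their values do not show that the effect differed. The count of 3 fell to 1 with a pseudocount of 0.1 and with the replicate block, and to 1 or 2 with any 1 library left out.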

How the results depend on the processing

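CXCL8 and IL6 kept their direction and their call in Hs578T under every alternative listed, and the count of members called there stayed at 2. Of 437 recomputed differences of single members, 395 kept direction and call, 2 became significant, 22 lost significance and 18 turned sign. The count of members called in HCC70 went from 0 to 1 with edgeR and 1 with DESeq2 on recovered reads, LIF in both. In the libraries labelled KIF20A OE it went from 5 to 8 with no minimum and to 3 with a minimum mean of 5, where fewer genes are tested. For the difference between both lines it went from 3 to 1 with a pseudocount of 0.1 and to 1 with the replicate block, and leaving out 1 library gave 1 to 2. The CXCL3 difference lost significance with the block and without 10 of 12 libraries, that of CXCL8 with a pseudocount of 0.1, the block and without 8 of 12, and that of IL6 with a pseudocount of 0.1 only (−0.81, adjusted p = 0.14, limma); the cause was not tested.

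Signs turned only when 1 library was left out, and only for differences that did not pass. The ranges were −0.053 to 0.13 for CXCL2 in Hs578T, −0.083 to 0.056 for CXCL8 and −0.017 to 0.12 for CCL5 in HCC70, and, for KIF20A sg1 against sgCtrl, −0.13 to 0.45 for CXCL2, −0.060 to 0.44 for CXCL3, −0.15 to 0.22 for CXCL8, −0.21 to 0.26 for IL6, −0.38 to 0.26 for LIF, −0.37 to 1.31 for IL1A and −0.086 to 1.14 for IL1B. Replicate numbers showed no strong pairing of the samples: the correlation of same-numbered libraries lay between −0.16 and 0.19. For labelled KIF20A OE against EV, the same-numbered library was still the best match of each replicate, at r of 0.036, 0.058 and 0.014. The same held for HCC70 replicate 2, so a weak pairing is not excluded. With the replicate block, calls over all genes went from 953 to 669 in Hs578T, from 374 to 128 in HCC70, from 0 to 0 for the guide, from 10634 to 10545 in the libraries labelled KIF20A OE and from 1111 to 408 for the difference between lines. Calls over all genes in HCC70 were 536 with a minimum mean of 5, 178 without a minimum, 233 with the median of ratios, and 32 to 270 with 1 library left out; in Hs578T the latter gave 343 to 865 and for the difference between lines 440 to 1414. Depth limits what can be said of CCL5, IL1A and IL1B in Hs578T and of IL6, IL1A and IL1B in HCC70, all with at most 9 reads per library.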
